A study of Mus musculus with 24 samples.

Results

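Whole-blood transcriptomes of newborn mice whose mothers had inhaled traffic-derived nanoparticles were set against those of pups whose mothers had breathed filtered air. The nanoparticles, called nPM, are a nano-sized fraction of ambient particulate matter, collected beside a freeway and re-aerosolized for the dams. The comparison used 6 nPM-exposed libraries (V1, V3, V5, V7, V18 and V21; 3 female and 3 male pups) and 5 control libraries (V4, V6, V8, V17 and V22; 2 female and 3 male pups), out of 24 libraries from blood and cerebral cortex. A sixth control blood library, V2, was left out because it carried skin RNA. Genes were kept when each of the 11 libraries held at least 10 counts, which left 5548 of the 48709 annotated genes. All pups, controls included, were C57BL/6J and 3 to 5 days old by the sample labels, while the study's methods name the substrain C57BL/6NJ and an age of 5 days. The exposed dams inhaled nPM in sessions of 5 h, 3 times a week, from gestational day 2 until birth, so each pup was exposed only through its mother. For the nPM concentration the labels and the methods give the same figure in different units, milligrams and micrograms per cubic meter. The study's methods describe 3 pups per sex and exposure group, taken from different litters. The labels do not list the litter of each pup, so whether a male and a female of a group shared one is not known. The p-values below measure the spread between these pups.

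Blood of a mouse a few days old is dominated by red cells and reticulocytes, immature red cells that have lost the nucleus but still carry RNA. Their RNA is mostly globin messenger, beside transcripts for heme synthesis and the red cell membrane, while leukocytes and platelets add a small remainder. Because the libraries were made from total RNA after removal of ribosomal RNA, they also hold transcripts without a poly(A) tail, among them the 7SL RNA of the signal recognition particle and the messengers of replication-dependent histones. In whole blood, fewer cells of a type and less RNA per cell cannot be told apart.

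The libraries matched the label blood. The beta-globin gene Hbb-bs held between 312000 and 407000 CPM (a gene's counts relative to the total of its library) and the erythroid enzyme of heme synthesis Alas2 between 18800 and 27100 CPM in the 11 libraries. Globin genes together took 66.25% of the counts in V3 and 71.02% to 76.84% in the rest. Total counts ran from 13595647 in V8 to 21895536 in V4, so that the minimum of 10 counts stood for 0.457 to 0.736 CPM. The groups overlapped in total counts, in the number of genes with a count and in the RNA integrity number (RIN). Exposed libraries had 15180 ± 1180 genes with a count and controls 14560 ± 1136 (SD; two-sided exact permutation test, p = 0.39, 0.758 after adjustment over 3 measures, where 0.00433 is the smallest p the design allows). RIN was 8.28 ± 0.578 against 8.46 ± 0.666 (exact permutation test, p = 0.68). No sex label went against the level of the Y-linked gene Ddx3y.

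Markers of other tissues were low beside globin genes in the 11 libraries compared, but not absent. Fibroblast genes summed to 14.9 to 49.2 CPM there and endothelial genes to 9.95 to 19.7 CPM. Some libraries stood apart in ways that bear on the results below. In V2 the 21 keratinocyte genes summed to 12700 CPM, led by Krt1 at 3860 CPM, against at most 12.4 CPM in any of the 11 libraries compared. The 14 fibroblast genes summed to 5830 CPM in V2 and to at most 49.2 CPM elsewhere. Among the libraries compared, the exposed library V5 held 144 CPM over 20 brain genes, led by Meg3 at 55.6 CPM. The other 10 libraries held 6.18 to 27.6 CPM and divided by sequencing lane. Those of lane 3 (V17, V18, V21 and V22) held 19.5 to 27.6 CPM, and those of lane 1 held 6.18 to 9.43 CPM. Keratinocyte genes went the other way, with 0.544 to 1.2 CPM in lane 3 and 3.33 to 12.4 CPM in lane 1. The part of the lane in these levels was not tested. The exposed library V7 had the highest sum over 12 skeletal muscle genes, 30.8 CPM, led by Ttn at 14.3 CPM. The defining liver markers Alb and Afp reached at most 0.246 and 0.274 CPM. Lymphocyte RNA also varied between libraries, since 32 T and NK lymphocyte genes summed to 126 CPM in the control V4 and to 20.9 CPM in the exposed V3. Interferon-stimulated genes were highest in V3 and in the control V22.

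**Figure D1:**
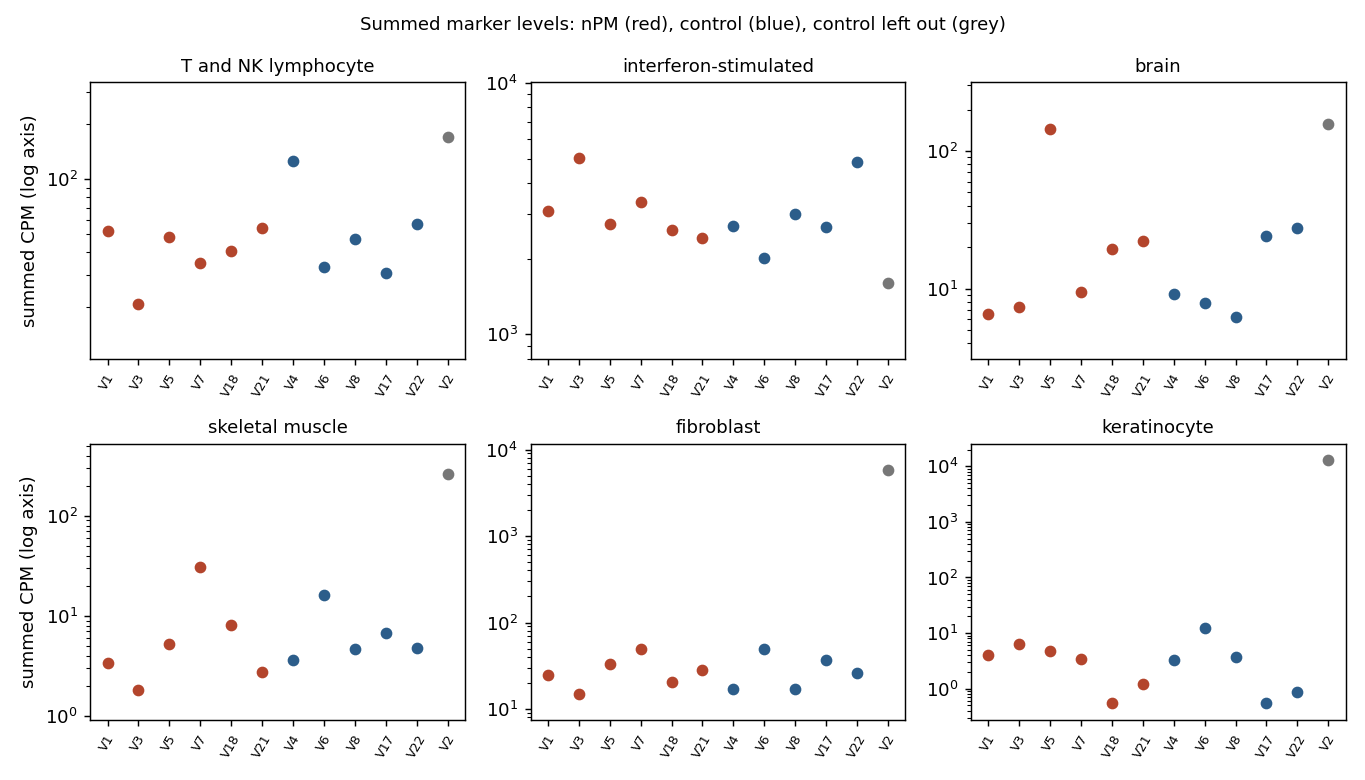
Summed level of 6 gene lists in each blood library, in CPM of total counts on a log axis; red points are nPM-exposed libraries, blue points controls and the grey point the control left out. V2 stands apart for keratinocyte (12700 CPM) and fibroblast genes (5830 CPM), and among the 11 libraries compared V5 stands apart for brain genes (144 CPM) and V4 for T and NK lymphocyte genes (126 CPM).

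The comparison asks whether prenatal nPM left a mark on the blood transcriptome of the neonate when both sexes are pooled, with sex and RIN as covariates. Differences were small. The log2 fold change of nPM over control lay within 0.5 of 0 for 96.07% of the genes, with a median of 0.0005, and 50.1% of the genes were higher and 49.9% lower. At an unadjusted p under 0.005, the cutoff of the study, edgeR's quasi-likelihood test called 7 genes, 0.126% of those tested, which is below the share that such a cutoff alone would pass. A single gene was higher (Lrp1; 0.018% of the genes tested) and 6 were lower (Rn7s2, Ttc38, Cenpi, Nhej1, Hist1h2bg and Hist1h2bl; 0.108%). No gene passed Benjamini-Hochberg adjustment over all genes, where the smallest adjusted p was 0.1183 for Rn7s2 and the next was 0.9996. At the wider cutoff of an unadjusted p under 0.05, 142 genes (2.56%) were called, 59 higher (1.06%) and 83 lower (1.5%). With DESeq2 in place of edgeR 11 genes passed the first cutoff and 1, Rn7s2, passed adjustment. With limma voom 6 genes passed the first cutoff and none passed adjustment. With sequencing lane as a covariate in edgeR 2 genes passed the first cutoff, both among the 7. Among the 7 genes, edgeR's largest unadjusted p was 0.004618 for Hist1h2bl, and the next gene outside the cutoff was another H2B gene, Hist1h2bn (edgeR, unadjusted p = 0.005717). The count at 0.005 also depended on single libraries, with 2 genes without the exposed V1 (1 of the 7 among them), 4 without V7 or the control V17 and 21 without the exposed V21. When V2 was put back among the controls, no gene passed an unadjusted p under 0.005 and 85 passed 0.05.

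**Figure D2:**
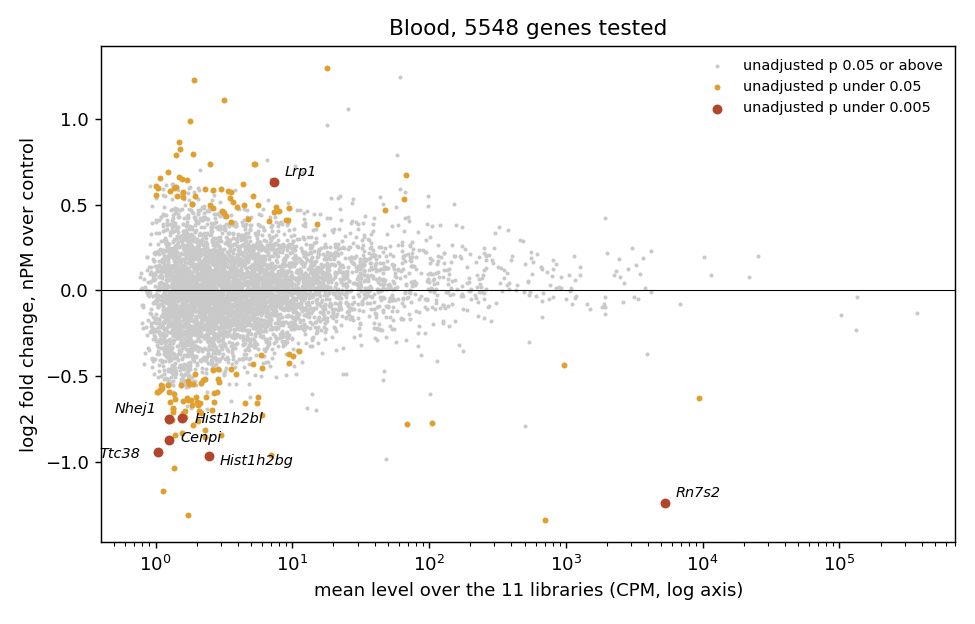
Log2 fold change of nPM over control against the mean level over the 11 libraries (CPM, log axis) for each of the 5548 genes tested; colours mark the unadjusted p. The cloud is centred on 0, and of the 7 genes under 0.005 only Rn7s2, lower by 1.24 on the log2 scale, is an abundant transcript.

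The gene with the smallest p was Rn7s2, a locus for 7SL RNA. 7SL is the RNA scaffold of the signal recognition particle, the ribonucleoprotein that docks ribosomes making secreted and membrane proteins at the endoplasmic reticulum. The annotation holds a pair of full-length mouse copies on chromosome 12, Rn7s1 at chr12:69159295-69159594 on the plus strand and Rn7s2 at chr12:69361182-69361481 on the minus strand (GRCm38). Their annotated transcripts are the same at all 300 positions. With no differing base, a read from either copy fits both, so the values of each locus depend on how the authors' alignment and counting placed such reads. How they treated reads that fit several places is not given in the sources used here. The annotated span of Rn7s2 also overlaps Gm47299 and Gm47305.

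Rn7s2 stood at 2358, 1682, 4427, 4176, 2157 and 4289 CPM in the exposed libraries V1, V3, V5, V7, V18 and V21, after scaling by the trimmed mean of M-values (TMM). From here on CPM of single genes are on this scale unless stated. Sums over gene lists, and a member's part of such a sum, remain relative to library totals. Controls V4, V6, V8, V17 and V22 held 4641, 8020, 6531, 5870 and 14000 CPM. Every exposed library was below every control, and V22 was the highest by far. The group means were 3181 ± 1245 CPM (SD, n = 6) and 7813 ± 3669 CPM (SD, n = 5). The fitted log2 fold change was -1.24 (SE 0.21; unadjusted p = 2.132e-05, adjusted p = 0.1183). The difference of log2 means was -1.35 among females and -1.07 among males, and -1.09 and -1.58 within the sequencing lanes 1 and 3. Rn7s2 kept an unadjusted p under 0.005 whichever of the 11 libraries was left out, with log2 fold changes from -1.39 to -1.06. With V2 among the controls its p was 0.07637, with the same sign.

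Rn7s1 was also lower on average, but its groups overlapped. The exposed libraries held 9444, 2865, 8193, 5454, 6156 and 11450 CPM, and the controls 13340, 17750, 8917, 9117 and 10060 CPM. Its log2 fold change was -0.63 (SE 0.27, unadjusted p = 0.03414). Rn7s2 took 20% to 43.4% of the summed counts of both loci in exposed libraries and 25.8% to 58.2% in controls, with the largest share in V22. The sum of both copies is free of that division. It ran from 4547 CPM in V3 to 15740 CPM in V21 among exposed libraries (median 10720) and from 14990 CPM in V17 to 25770 CPM in V6 among controls (median 17980). Only V21 reached into the range of the controls. Tested as a single row, an alternative chosen after the data had been seen, the sum had a log2 fold change of -0.85 (SE 0.23, unadjusted p = 0.001983), and its adjusted p was 0.9998.

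**Figure D3:**
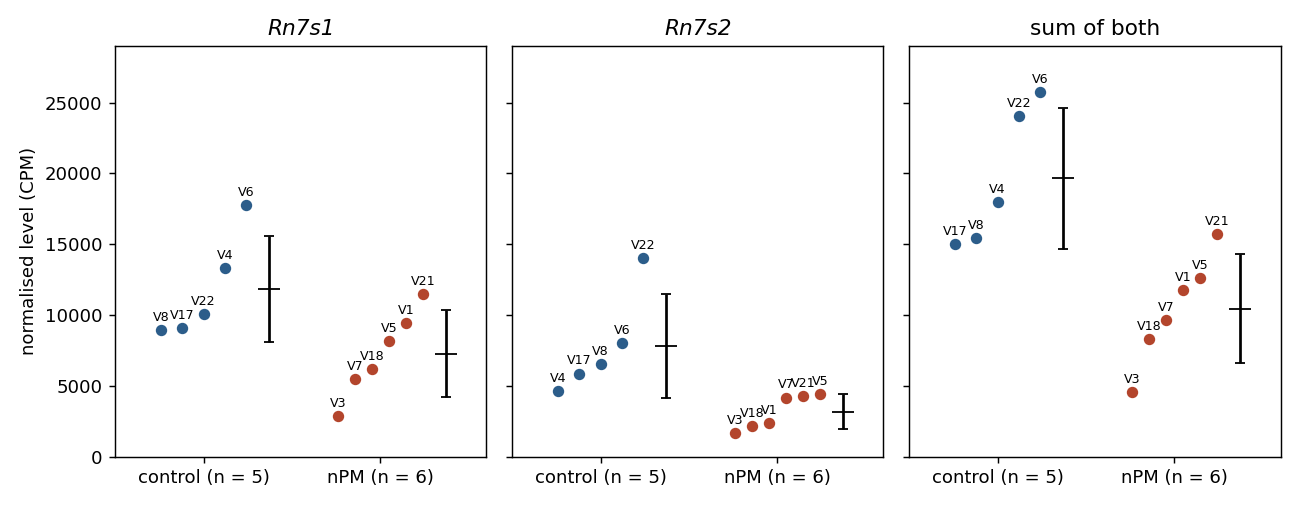
TMM-scaled level in CPM of Rn7s1, of Rn7s2 and of their sum in each library; points are libraries, bars the mean ± SD of the group. Rn7s2 does not overlap between groups (at most 4427 CPM with nPM, at least 4641 CPM in controls), whereas V21 with 15740 CPM of the sum lies above the lowest control with 14990 CPM.

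The list of 7SL, 7SK, Y and RNase RNAs held 6 tested genes, Rn7s1 and Rn7s2 among them but no 7SK gene. All 6 were lower and 4 had an unadjusted p under 0.05, against 1.5% of all genes lower at that cutoff. The calls beside the 7SL copies were Rmrp and Rpph1. Without V1, V3, V7, V6 or V17, left out in turn, the number under 0.05 was 2, with all 6 still lower. Rmrp, the RNA of RNase MRP, which takes part in ribosomal RNA maturation, stood at 39.4 to 142 CPM in exposed libraries and 107 to 160 CPM in controls, with a log2 fold change of -0.77 (SE 0.25, unadjusted p = 0.006974). V21, with 141.6 CPM, lay inside the control range, and the gene's span overlaps Ccdc107. Rpph1, the RNA of RNase P that trims transfer RNA precursors, held 611 to 998 CPM in exposed libraries and 1020 to 1280 CPM in controls, with no overlap, and its log2 fold change was -0.43 (SE 0.18, unadjusted p = 0.02823). The Y RNA gene Rny1 was at -0.55 (SE 0.28, unadjusted p = 0.06371). The copy annotated as Rn7s6 was at -0.23 (SE 0.24, unadjusted p = 0.3574).

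By annotated gene type, 5 of 6 small nucleolar RNAs, 5 of 5 small Cajal body RNAs and 3 of 3 small nuclear RNAs were lower, against 49.9% of all genes. Their median log2 fold changes were -0.59, -0.36 and -0.84. The lowest p among them belonged to the small nucleolar RNA Gm24336, which lies inside Cwf19l1 and averaged 1.15 CPM with nPM and 2.05 CPM in controls (log2 fold change -0.83, SE 0.27, unadjusted p = 0.006111). Within lane 3 alone, which held 4 of the libraries, 2 of the 6 genes of the 7SL list were higher and the median was -0.20, against -0.90 within lane 1. The share of counts on genes annotated as misc_RNA, to which the 7SL copies belong, ranged from 0.5118% in V3 to 2.647% in V22, so the level of the class differed widely between libraries of the same tissue. The part of library preparation in these differences was not tested.

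Replication-dependent histone genes also leaned low. They encode the core and linker histones that package newly replicated DNA, are transcribed in S phase, and make messengers that end in a stem-loop in place of a poly(A) tail. Of 66 listed genes 35 were tested, and 31 of these were lower with nPM while 4 were higher. Their median was -0.43 on the log2 scale. At an unadjusted p under 0.05, 11 of the 35 (31.4%) were lower and none was higher, where 1.5% of all genes were lower. The number at p under 0.05 depended on single libraries, and it was 3 without the exposed V1, 22 without the control V8, 7 without V4 or V6, 6 without V17 and 5 without both V4 and V22. The median of the list stayed below 0 whichever library was left out, from -0.56 without V8 to -0.31 without V3, and was -0.28 without both V4 and V22.

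The median log2 fold change was -0.40 over the 11 tested H2B genes, with 10 lower and 5 of them under 0.05. The 3 H2A genes had a median of -0.65, the 4 H3 genes -0.44, the 12 H4 genes -0.45 and the 5 linker H1 genes -0.34. Hist1h2bg, at chr13:23571408-23571884, held 1.917, 0.8447, 1.913, 1.613, 2.307 and 1.634 CPM in the exposed libraries and 5.643, 2.309, 1.541, 4.176 and 2.987 CPM in the controls V4, V6, V8, V17 and V22. V8 was as low as the exposed libraries, and V4 and V17 were the highest. Its log2 fold change was -0.97 (SE 0.29, unadjusted p = 0.004353). Hist1h2bl, at chr13:21715763-21716143, held 0.885 to 1.69 CPM with nPM (median near 1.16) and 2.408, 1.68, 1.618, 2.145 and 2.036 CPM in controls, for a fitted log2 difference of -0.74 (SE 0.23, unadjusted p = 0.004618). Only V3, at 1.69 CPM, reached the lower controls. Hist2h2ac was at -1.03 (SE 0.36, unadjusted p = 0.01045). Hist1h1c, the member with the most counts and one whose messenger can also be polyadenylated, was at 0.18 (SE 0.20), with 77.2 CPM in exposed and 66.5 CPM in control libraries.

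Over all 35 genes, the median deviation from a gene's own mean was 0.69 in V4 and 0.58 in V17 on the log2 scale, and -0.40 in the control V8. Exposed libraries ran from -0.54 in V3 to 0.12 in V18. The control V8 thus lay below all exposed libraries but V3. Genes of the G2 and M phases of the cell cycle were lower for 20 of 24 members, with a median of -0.11 that was -0.04 without V1. At an unadjusted p under 0.05, where 1.5% of all genes were lower, 2 of the 24 were lower, and none without V18 or without V21. They were the mitotic kinases Cdk1 (-0.55, SE 0.25, unadjusted p = 0.04253) and Bub1 (-0.71, SE 0.32, unadjusted p = 0.04316). Of the replication and repair genes, Pcna, the sliding clamp of DNA polymerase, was at -0.39 (SE 0.23, unadjusted p = 0.1096) and Lig1 at -0.47 (SE 0.29, unadjusted p = 0.1185). H4 and H2B genes are near-identical in their coding parts, so reads may be divided between members uncertainly.

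**Figure D4:**
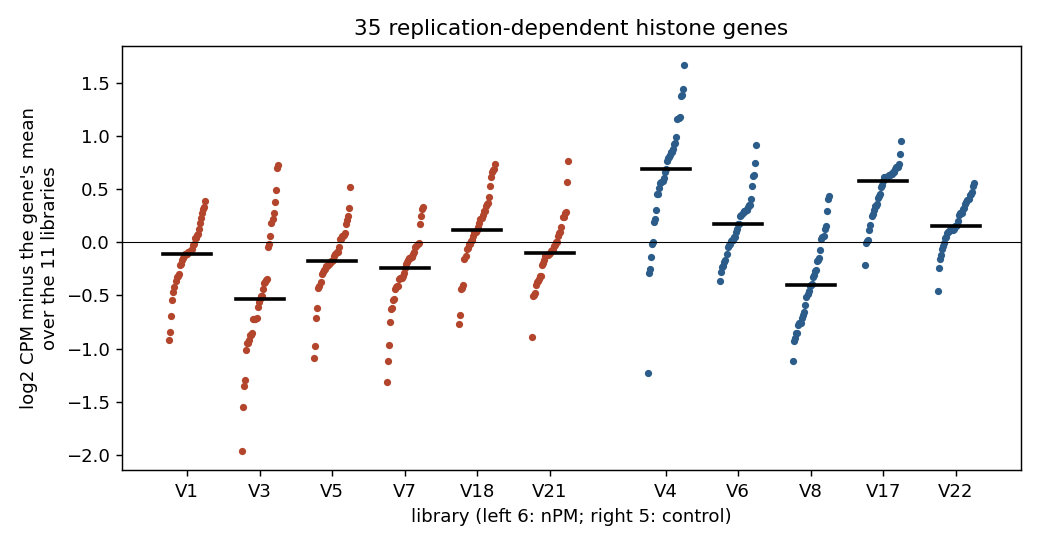
Deviation of each of the 35 tested histone genes from its own mean over the 11 libraries (log2 CPM), by library; points are genes and the black line their median. The medians run from -0.54 to 0.12 in exposed libraries and from -0.40 to 0.69 in controls, with V4 and V17 highest.

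Every histone class had a negative median, so the windows around the transcription starts of all classes were searched for letters known from histone promoters. These were the octamer ATTTGCAT, a mark of H2B promoters bound by octamer factors, the CCAAT box and TATAAA, each on both strands. RefSeq (GRCm38.p6) gave a 300-base window for 30 of the 35 tested genes. The octamer was in 4 of 9 H2B windows (44.4%), in 2 of 3 H2A windows and in none of the others, against 1.74% of all 27025 windows. CCAAT was in 9 of 9 H2B, 3 of 3 H2A, 2 of 2 H3 and 5 of 5 H1 windows but in 3 of 11 H4 windows, and in 37.7% of all windows. TATAAA was in 63.3% of the histone windows and 14.2% of all. The windows of the 2 H2B genes under 0.005 are shown with ATTTGCAT and CCAAT matches in capitals (CCAAT reads ATTGG on the other strand). They are chr13:23571150-23571449, plus strand, for Hist1h2bg and chr13:21716134-21716433, minus strand, for Hist1h2bl.
Hist1h2bg: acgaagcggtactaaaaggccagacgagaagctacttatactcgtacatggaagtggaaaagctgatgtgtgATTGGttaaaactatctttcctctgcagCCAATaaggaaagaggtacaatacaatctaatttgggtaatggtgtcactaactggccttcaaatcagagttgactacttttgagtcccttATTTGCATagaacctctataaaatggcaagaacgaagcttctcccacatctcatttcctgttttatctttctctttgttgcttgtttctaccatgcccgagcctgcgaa
Hist1h2bl: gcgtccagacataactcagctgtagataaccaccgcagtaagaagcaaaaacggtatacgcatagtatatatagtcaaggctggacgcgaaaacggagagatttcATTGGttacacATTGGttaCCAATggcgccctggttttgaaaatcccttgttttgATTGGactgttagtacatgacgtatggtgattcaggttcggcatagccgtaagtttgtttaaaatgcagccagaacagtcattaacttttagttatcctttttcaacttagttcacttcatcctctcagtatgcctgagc
Hist1h2bg carried 1 octamer and 2 CCAAT matches, and Hist1h2bl carried 4 CCAAT matches and no exact octamer. No base belonged to more than 1 match. These matches describe the letters in the window only.

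The remaining lower genes under 0.005 were rare transcripts with unrelated roles. Ttc38 held 0.6557, 0.489, 0.7047, 0.7805, 1.101 and 0.685 CPM in exposed libraries and 1.204, 1.4, 1.31, 1.75 and 1.312 CPM in controls. The groups did not overlap, and the log2 fold change was -0.94 (SE 0.25, unadjusted p = 0.001545). Its p stayed under 0.005 in 9 of the 11 fits that left out a library and was largest, 0.01194, without V17. Cenpi, a centromere protein needed for kinetochore assembly, held 0.706 to 1.15 CPM with nPM and 2.558, 1.54, 0.8473, 1.862 and 1.448 CPM in controls (log2 fold change -0.87, SE 0.26, unadjusted p = 0.003745). V8 was within the exposed range. Nhej1, a factor of non-homologous DNA end joining, held 0.622 to 1.31 CPM with nPM and 1.429, 1.96, 1.926, 1.185 and 1.765 CPM in controls (-0.75, SE 0.23, unadjusted p = 0.004233). V1 and V17 overlapped there.

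Lrp1, an endocytic receptor of the low-density lipoprotein receptor family, was the single gene higher at this cutoff. Exposed libraries held 4.489, 5.557, 15.65, 8.066, 8.076 and 11.01 CPM and controls 4.251, 4.969, 6.625, 4.628 and 6.969 CPM. V5 was the highest and V1 and V3 overlapped the controls. The log2 fold change was 0.63 (SE 0.19, unadjusted p = 0.004283). Its p was under 0.005 in 3 of the 11 fits that left out a library, and with V2 among the controls the sign turned, to -0.28. V5 also carried the highest brain marker level, and the part of that RNA in the difference was not tested.

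Among the next genes by p, those higher with nPM were Ankrd40, Gad1, Nav1, Gnl3l, Yars, Ahi1, F10, Grk3, Srpk2, Krit1 and Grpel1, with log2 fold changes from 0.58 to 1.11 and unadjusted p from 0.007056 to 0.01963. Gad1, the enzyme of GABA synthesis and a member of the brain list, stood at 1.31 to 2.47 CPM with nPM and 0.677 to 1.45 CPM in controls, with V5 highest at 2.466 CPM. Nav1, a microtubule-binding protein of migrating neurons, reached 5.99 CPM in V5 and 0.656 to 2.24 CPM in the other exposed libraries, while controls held 0.451 to 1.52 CPM. Yars, tyrosyl-tRNA synthetase, averaged 1.49 ± 0.333 CPM with nPM and 0.92 ± 0.198 CPM in controls. F10, coagulation factor X, averaged 1.87 ± 0.664 CPM and 1.02 ± 0.31 CPM. Ahi1, a ciliary protein, was 1.11 higher on the log2 scale, led by V3 at 9.425 CPM. Its difference of log2 means was 1.43 within lane 1 and -0.10 within lane 3. Srpk2, a kinase of splicing factors, averaged 6.51 CPM with nPM and 3.64 CPM in controls, and its span overlaps Kmt2e.

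Those lower were Hist1h2bn, Gm24336, Tmc8, Rmrp, Irf1 and Gfi1b. Gfi1b, a repressor needed for red cell and megakaryocyte formation, averaged 1.01 ± 0.229 CPM in exposed libraries and 1.84 ± 0.645 CPM in controls (log2 fold change -0.84, SE 0.28, unadjusted p = 0.007826). Its p was largest without V17, at 0.09497. Tmc8, a lymphocyte membrane protein whose span overlaps Tmc6, did not overlap between groups, with 1.07 to 2.21 CPM against 2.31 to 2.93 CPM (-0.67, SE 0.21, unadjusted p = 0.006396). In all, 8 genes (0.144%) had every exposed library below every control, among them Rn7s2, Ttc38, Tmc8, Rpph1, Ints7, Rrn3 and Tmem164. A further 2 (0.036%), 6430548M08Rik and the fatty acid synthesis enzyme Acaca, had every exposed library above every control. With random labels, a gene would separate completely in either direction with a probability of 0.00433. Genes without overlap were therefore no more frequent than random labels would give. Rrn3, an initiation factor of RNA polymerase I, averaged 0.912 CPM against 1.32 CPM, and Acaca 2.34 CPM against 1.68 CPM.

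The bulk of the blood transcriptome, that of red cells, held a single gene under 0.05, Gfi1b, over 5 lists, where 2.56% of all genes were under 0.05. Of 6 tested globin genes 5 were lower and none passed an unadjusted p under 0.05, and 3 were lower without V6 or without V17. Hbb-bs averaged 349300 ± 45180 CPM with nPM and 388400 ± 62320 CPM in controls (log2 fold change -0.13, SE 0.21, unadjusted p = 0.5411). Hbb-bt was at -0.23 (SE 0.24), Hba-a1 at -0.04 (SE 0.22) and Hba-a2 at -0.14 (SE 0.32). The alpha-globin pair and the beta-globin pair are near-identical copies, so counts within a pair may be divided uncertainly. By CPM per kb of annotated length, these 4 genes were followed by Gm23935, a row of 57 bases annotated as a miRNA inside Zc3h7a, which averaged 3635 CPM with nPM and 4291 CPM in controls (-0.37, SE 0.32, unadjusted p = 0.2566). Heme synthesis and iron uptake genes had 10 higher and 5 lower of 15, none under 0.05. Alas2 was at 0.08 (SE 0.19), ferrochelatase (Fech) at 0.10 (SE 0.20) and the transferrin receptor (Tfrc) at 0.26 (SE 0.26). Of 21 red cell membrane genes 16 were higher, with a median of 0.08 and log2 fold changes from -0.11 to 0.20, among them Epb41 (0.20, SE 0.19) and the anion exchanger Slc4a1 (0.12, SE 0.22). Reticulocyte maturation genes were split 9 to 9. Of 16 erythroid regulators Gfi1b alone passed an unadjusted p under 0.05, while Gata1, the master regulator of the lineage, was at 0.29 (SE 0.21, unadjusted p = 0.1812) and Myb, a factor of progenitors, at -0.51 (SE 0.27, unadjusted p = 0.0717). The number of erythroid regulators under 0.05 was 2 without V4, V6 or V8, left out in turn, and 0 without V17. Without V4 the median of the membrane genes was -0.08 and that of the heme genes -0.13.

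**Figure D5:**
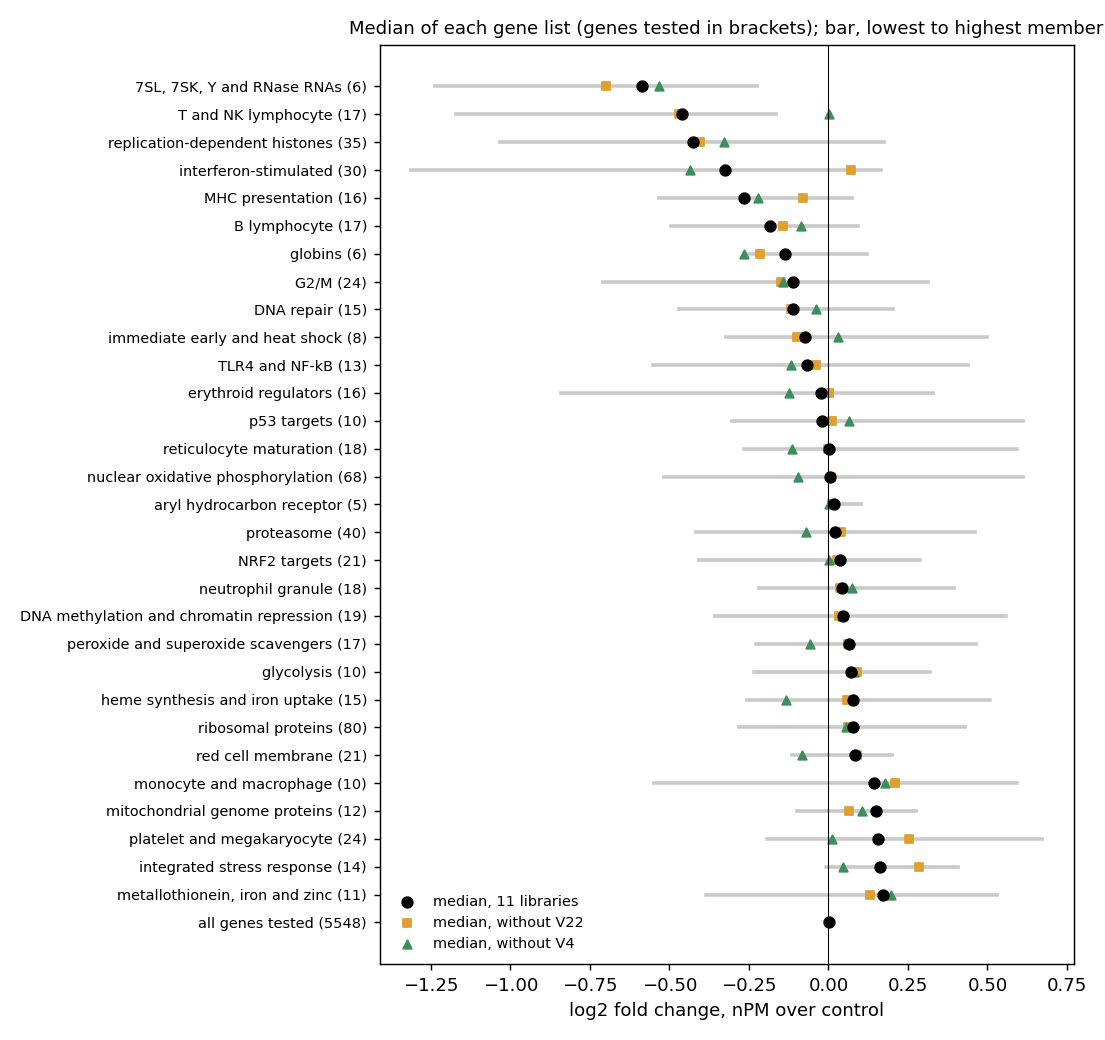
Median log2 fold change of nPM over control in each gene list with at least 5 tested members (black), and without the controls V22 (orange squares) or V4 (green triangles); grey bars span the lowest to the highest member. The 7SL and histone lists lie left of 0 in all 3, the interferon list is at -0.33, 0.07 and -0.44, and the T and NK lymphocyte list at -0.46, -0.47 and 0.00.

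Interferon-stimulated genes, the antiviral program switched on by type I and type II interferon, were lower for 25 of 30 tested members, with a median of -0.33, and 7 (23.3%) were lower at an unadjusted p under 0.05: Irf1, Ifit2, Gbp2, Irf7, Gbp4, Stat2 and Trim30a. Of all genes, 1.5% were lower at that cutoff. That pattern rested on the control V22, and 4 were under 0.05 without V4 or without V5. Without V22, 19 of 30 were higher, the median was 0.07, 0 were lower at an unadjusted p under 0.05 and 1 was higher. Irf7, the transcription factor that amplifies the type I response, held 33.5 to 62.8 CPM in exposed libraries and 71.9, 46.8, 57.8, 77.3 and 193 CPM in controls, with V22 last. Gbp2, a guanylate-binding protein, held 8.37 CPM in V22 and 0.84 to 1.88 CPM in the other controls. Irf1 was at -0.85 (SE 0.28, unadjusted p = 0.007387), and its p without V22 was 0.05542. The member with the most counts, Rsad2, an antiviral enzyme also called viperin, averaged 2703 CPM with nPM and 2593 CPM in controls (0.04, SE 0.22). Genes of antigen presentation went the same way, with 15 of 16 lower, a median of -0.26 and none under 0.05. B2m, the light chain of class I molecules and the member with the most counts, held 144.9 CPM in V22 against 31.6 to 37.8 CPM in the other controls. Without V22 the median of that list was -0.08, and without V4 and V22 it was 0.09.

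T and NK lymphocyte genes were lower for 17 of 17 tested members, with a median of -0.46, and 1 of the 17 passed an unadjusted p under 0.05, where 1.5% of all genes were lower. That gene was Gzma, a granule protease, at -1.17 (SE 0.42, unadjusted p = 0.01335), with 3.76 CPM in V22. The lean of the list rested on V4. The T cell factor Tcf7 held 12.8 CPM in V4 and 4.06 to 5.02 CPM in the other controls, and Trbc2, a constant segment of the T cell receptor, 10.8 CPM against 2.65 to 3.85 CPM. In the exposed V3, Tcf7 was at 0.489 CPM. Without V4, 9 of 17 genes were higher and the median was 0.00. The number under 0.05 was 0 without V1 or V22, 2 without V21, 3 without V6 and 5 without V17. B lymphocyte genes were lower for 14 of 17, none under 0.05, with Pax5, which fixes B cell identity, at -0.41 (SE 0.29). The median of -0.18 was -0.02 without V3 and -0.09 without V4, and without both V4 and V22 8 genes were higher and 9 lower. Under 0.05 there were 2 genes without V1 and 3 without V21. The sum of that list was almost all Cd24a, a surface protein that red cell precursors also carry.

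Myeloid genes gave 1 call at the wider cutoff. Of 18 neutrophil granule genes 11 were higher and 7 lower (5 and 13 without V8), and S100a9 and S100a8, the calprotectin subunits, were at -0.22 (SE 0.22) and -0.08 (SE 0.22). Of 10 monocyte and macrophage genes 6 were higher, 1 of them at an unadjusted p under 0.05, where 1.06% of all genes were higher (Adgre4, 0.59, SE 0.28, unadjusted p = 0.04728), and Csf1r, the receptor for macrophage colony-stimulating factor, was at 0.44 (SE 0.23, unadjusted p = 0.07399). Platelet and megakaryocyte genes were higher for 19 of 24 members, with a median of 0.16. The chemokine precursor Ppbp was the 1 member under 0.05, where 1.06% of all genes were higher, with 48.3 to 134 CPM in exposed libraries and 26.3 to 85 CPM in controls (0.67, SE 0.31, unadjusted p = 0.04685). V3 was the highest and V4 the lowest for Ppbp. Thbs1 was at 0.51 (SE 0.26, unadjusted p = 0.07184). Without V3 the median of the list was 0.06, and without V4 it was 0.01.

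Pathways often examined after particle exposure held no gene under 0.005. The antioxidant targets of NRF2 were split 13 higher and 8 lower, with a median of 0.04, and peroxide and superoxide scavengers 12 and 5, with Sod1, the cytosolic superoxide dismutase, at 0.46 (SE 0.25, unadjusted p = 0.08495) and catalase (Cat) at 0.09 (SE 0.20). Without V4 the scavengers were split 7 and 10, and without V3, V7 or V17, left out in turn, the NRF2 targets 10 and 11. The 5 tested genes of the aryl hydrocarbon receptor pathway lay between 0.01 and 0.10, and 2 of them were higher without V1 or without V6. TLR4 and NF-kB genes were lower for 9 of 13, with a median of -0.07. Genes of the integrated stress response were higher for 13 of 14, with a median of 0.16, and none was under 0.05. In that list Ppp1r15b, a phosphatase subunit that restores translation, was at 0.41 (SE 0.21, unadjusted p = 0.06725) and Atf4, its central transcription factor, at 0.19 (SE 0.43). In lane 3 alone 4 of the 14 were higher. Without V3 9 of the 14 were higher and without V4 11. The p53 targets had a median of -0.02. No metallothionein gene passed the filter. Of 11 tested genes for iron and zinc handling 8 were higher and the median was 0.17, with Pcbp2, an RNA-binding iron chaperone, at 0.53 (SE 0.26, unadjusted p = 0.05857). Glycolysis genes had a median of 0.07 and immediate early and heat shock genes of -0.07, the latter 0.03 without V4. Of 19 genes of DNA methylation and chromatin repression, the histone methyltransferase Suv39h1 was higher (0.56, SE 0.24, unadjusted p = 0.03122) and the Polycomb subunit Suz12 lower (-0.36, SE 0.16, unadjusted p = 0.04479) at the wider cutoff. No gene of that list was under 0.05 with DESeq2, or when V1, V5, V7, V6, V8 or V17 was left out.

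Lists of housekeeping complexes did not share a direction. Ribosomal protein genes were higher for 56 of 80, with a median of 0.08 and none under 0.05, but for only 18 of 80 without V3, 21 without V7 and 36 without V17. Nuclear genes of oxidative phosphorylation were split 34 to 34, and the subunits of complex I Ndufv3 (0.59, SE 0.27, unadjusted p = 0.04384) and Ndufs4 (-0.52, SE 0.24, unadjusted p = 0.0426) lay on opposite sides. Of 12 protein genes of the mitochondrial genome 10 were higher, with a median of 0.15, none under 0.05, and 5 were higher without both V4 and V22. Proteasome genes had 21 higher and 19 lower of 40. DNA repair genes were lower for 10 of 15, with a median of -0.11, but without V3 8 were higher and the median was 0.02, and in lane 3 alone 10 were higher. Of metalloproteases and their inhibitors 3 were tested, 1 higher and 2 lower, and of the lists for other tissues 4 fibroblast genes (all lower), 3 brain genes and 2 endothelial genes passed the filter. No gene of the eosinophil, keratinocyte, skeletal muscle, liver or fat lists did. In total 20 of the 30 lists with at least 5 tested genes had no gene at an unadjusted p under 0.05 in either direction.

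Calls at the wider cutoff were unequally spread by gene length. Genes were ranked by annotated length and split into 4 groups of equal size. In the shortest group (56 to 2873 bases) 9 were higher and 42 lower, and in the longest (7313 to 123200 bases) 29 were higher and 8 lower, where the share of all genes was 1.06% higher and 1.5% lower. The median log2 fold changes of these groups were -0.01 and 0.02, and they were -0.06 and 0.07 without V4 and 0.00 and -0.02 without V5. The contrast in calls kept its direction whichever of the 11 libraries was left out, with 5 to 31 higher and 32 to 62 lower among the shortest genes. Among the longest there were 13 higher and 2 lower without V1, 39 and 3 without V4 and 20 and 13 without V6. With V2 among the controls the longest group had 5 higher and 7 lower. The lower genes of the shortest group include Rn7s1, Rn7s2, Rmrp, Rpph1, Hist1h2bg and Hist1h2bl, already described. The contrast is therefore not separate from the 7SL and histone lists. By chromosome, chromosome 13, which holds the large histone cluster, had 1 higher and 16 lower of 245 tested genes (6.53% lower). Of all genes, 1.06% were higher and 1.5% lower. Hist1h2bg and Hist1h2bl are among the 16, so that count also overlaps the histone list. RIN, which also relates to transcript length, was in the model, and its part in the contrast by length beyond the linear term was not tested.

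Female and male pups were compared through an interaction term in the same model. At an unadjusted p under 0.005 the interaction called 53 genes (0.955%) and at 0.05 669 genes (12.1%). Both shares are above those that such cutoffs alone would pass. None passed adjustment in edgeR, where the smallest adjusted p was 0.149, while 3 passed it in DESeq2. Of the 53 genes, picked by that term, 39 had the higher log2 fold change in males. In 50 of the 53 the differences in females and males had opposite signs. The smallest p values in edgeR's test belonged to the small nuclear RNA Gm23444, with a difference of log2 means of -2.36 in females and 0.35 in males (edgeR, unadjusted p = 4.983e-05), and the small Cajal body RNA Gm25395, with -1.69 and 0.14 (edgeR, unadjusted p = 6.699e-05). Rmrp followed the same order, at -1.61 in females and -0.03 in males (edgeR, unadjusted p = 0.002674). For Hist1h2bg the values were -1.65 and -0.36 (edgeR, unadjusted p = 0.03047). Next by p after Gm25395, the pseudogenes Rpl17-ps5 and Gm2541 went the other way, with 0.99 and 0.63 in females and -1.9 and -1.24 in males. The interaction for Rn7s2 was 0.22 on the log2 scale (edgeR, unadjusted p = 0.6325). The female comparison rests on 3 exposed and 2 control libraries, V4 and V17, which were also the pair with the highest histone levels.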

How the data were processed

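RNA was measured in whole blood by total RNA sequencing after ribosomal RNA depletion. According to the submitters' processing notes, the authors used FastQC, Trimmomatic, HISAT2 and featureCounts 1.5.0-p3 with mouse build GRCm38 (mm10). The deposited values are raw counts per gene, 1 column per library, with no normalization, and no row lacks a gene name. The treatment of reads that fit several places and of strand is not given in the sources used here. Columns of per-sample values not used numbered 0.

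The members and gene lists were chosen with earlier results of these data known. Genes with at least 10 counts in each of 11 libraries were normalized by TMM and tested with edgeR 4.0.16 (R 4.3.3) by the quasi-likelihood F test, with exposure, sex and RIN as terms, 7 residual degrees of freedom and Benjamini-Hochberg adjustment. The interaction of exposure and sex was a further term. Alternatives were limma 3.58.1 voom, DESeq2 1.42.0, other normalizations, filters and covariates, single lanes, and leaving out each library. Those without both V4 and V22 and with the 7SL copies summed were chosen after seeing the data. Named genes were the 12 with the smallest p in each direction, the 5 with the highest mean CPM per kb, the 2 with the most counts and the 2 with the smallest p of each list and class, and markers of other tissues. Ints7, Rrn3, Tmem164, 6430548M08Rik, Acaca, Atf4, Csf1r, Fech, Gata1, Gbp2, Gbp4, Gm2541, Hist2h2ac, Il7r, Irf7, mt-Atp6, mt-Co2, mt-Nd3, Rn7s6, Rny1, Rpl17-ps5, Stat2, Tfrc and Trim30a fall outside that rule and were named after their values were seen. Library measures were compared by exact permutation. On simulated counts for this comparison, with 200 of 5548 genes changed, edgeR recovered 172 at an unadjusted p under 0.005. All were changed by the same amount, and the median size of their fitted log2 fold changes was 0.987. Smaller changes, such as those within 0.5 of 0 found for 96.07% of the genes, were not simulated. Promoter sequences are from RefSeq on GRCm38.p6, and the 7SL copies were compared in the GENCODE vM21 transcripts. A few items are not reported here.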

Additional observations from a re-analysis of the deposited data

Results flagged for a closer look

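In 128 groups of 5 or 6 libraries, each holding the values of a named gene, list or library measure, 14 had 1 library outlying by Dixon's criterion, where 1 in 20 would give 6.4 by chance. The values are given with no explanation. Among exposed libraries, Nav1 was 5.99 CPM in V5 with the next at 2.238, Gnl3l was 1.614 CPM in V1 with the next at 3.199, and Gm24336 was 2.002 CPM in V21 with the next at 1.11. In V3 the summed level was 3470 CPM for B lymphocyte genes, 219 CPM for TLR4 and NF-kB genes, 5030 CPM for interferon-stimulated genes, 1620 CPM for platelet genes and 1460 CPM for proteasome genes, and the nearest exposed libraries had 2510, 171, 3360, 1010 and 1130 CPM. Of the B lymphocyte sum in V3, 3430 CPM were Cd24a, which red cell precursors also carry, while Ighm, the heavy chain of IgM, was lowest in V3 at 8.58 CPM against 18.5 to 40.2 CPM in the other 10 libraries. Of the interferon-stimulated sum in V3, 4380 CPM were Rsad2, and of the proteasome sum 993 CPM were Psme3. Brain genes summed to 144 CPM in V5 with the next at 22 CPM. Among controls, Irf1 was 5.521 CPM in V22 with the next at 3.009. Genes of DNA methylation and chromatin repression summed to 368 CPM in V4 (next 262), T and NK lymphocyte genes to 126 CPM (next 56.9) and immediate early and heat shock genes to 219 CPM (next 130). Nuclear ribosomal RNA genes took 0.376% of the counts in V17 and 0.042% in the next control.

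The control V2 entered no comparison above except where it is named. Its keratinocyte genes summed to 12700 CPM, its fibroblast genes to 5830 CPM and its skeletal muscle genes to 263 CPM, while the highest of the 11 libraries compared had 12.4, 49.2 and 30.8 CPM.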

How the results depend on the processing

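Counts of genes moved with the processing while Rn7s2 stayed lower throughout. At an unadjusted p under 0.005 (7 genes), DESeq2 gave 11, lane 1 alone 11, lane as a covariate 2, all 12 blood libraries 0, a minimum of 1 count in every library 17, filterByExpr 15 and 1 count in any library 106, and leaving out single libraries 2 (V1) to 21 (V21). At 0.05 (142 genes) the 3 looser filters gave 310, 258 and 578, all 12 libraries 85, and leaving out single libraries 98 to 249. After adjustment (0 genes) DESeq2 gave 1 and the fit without RIN 1 (both Rn7s2), the loosest filter gave 28, and no fit without a single library gave any. The interaction with at least 1 count in every library gave 90 and 1063 genes at the 2 cutoffs (53 and 669 above), and DESeq2 gave 3 after adjustment. Of the calls at 0.05, 41.5% were higher, against 50% with relative log expression scaling, 51.2% with DESeq2, 64% with the loosest filter and 30.6% with all 12 libraries. Signs turned for Ahi1 (-0.094) and Gm25939 (0.0136) in lane 3, Lrp1 (-0.28) and Kcnq1ot1 (-0.14) with all 12 libraries, and CT010467.1 (0.0739 in lane 1, and -1.96 to 0.13 when single libraries were left out, the last without V17). The cause was not tested. Lane 3 alone gives values with no test. No paired analysis was possible because the replicate numbers are unique to each library. The minimum of 10 counts left out 4429 genes that every library detected, which held 0.2817% of the counts.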

Other observations

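Within the mitochondrial genome, the exposed library V18 was low over adjacent genes only. It held 42.9 CPM of mt-Co2, 18.2 CPM of mt-Atp6, 48.8 CPM of mt-Co3 and 1.05 CPM of mt-Nd3, while the other 10 libraries held 202 to 534, 92.2 to 240, 241 to 631 and 9.26 to 23.5 CPM. Its mt-Co1, at 2610 CPM, lay within the range of the others (1340 to 3000 CPM), and so did its mt-Nd1, at 46.5 CPM (32.9 to 70.6 CPM). V18 belongs to lane 3, and the other lane 3 libraries V21, V17 and V22 also leaned low there. Their mt-Co3 was at 241, 321 and 356 CPM, against 370 to 631 CPM in lane 1. Their mt-Atp6 was at 92.2, 127 and 153 CPM, against 150 to 240 CPM in lane 1. For mt-Co2 and mt-Nd3 they overlapped lane 1. The part of the lane was not tested.

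The first principal component of the 11 libraries held 30.2% of the variance and set V3 (39.72) against V4 (-27.65), with T lymphocyte genes such as Tcf7 and Il7r at the end of V4. The ribosomal RNA gene CT010467.1 held 4290 CPM in V17 and 208 to 540 CPM in the other libraries. The neuronal gene Map2, relative to library totals, held 19.5 CPM in V5 and at most 3.51 CPM in the rest of the 11.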
